A study of Caenorhabditis elegans with 18 samples.

Results

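The comparison asks which transcripts differ between whole worms of 5 days and of 1 day when the feeding bacteria carry no worm gene. All 6 libraries came from hermaphrodites of N2, the wild-type strain of the nematode Caenorhabditis elegans, and were made from total RNA of the whole animal. They were chosen by their source label: 3 libraries name L4440 and 1 day (libraries 31, 32 and 33) and 3 name L4440 and 5 days (libraries 40, 41 and 42), out of 18 libraries in the series. L4440 is the empty vector of feeding RNAi, so both ages share the plasmid, and age is the difference that the labels give. The other 12 libraries have the same 2 ages with the plasmids T14F9.5 and M05B5.5 (3 libraries for each plasmid and age). The labels do not state from which stage days are counted, whether the worms were kept free of progeny, or whether the 3 libraries in each group are separate cultures. The p-values therefore measure the spread between libraries, which was estimated over all 18 of the series and not over these 6 alone. The 6 libraries held 27024193 to 37812809 counts on genes, and age went with the sequencing lane (lanes 1 and 2 at day 1, lanes 5 and 6 at day 5), so age and lane cannot be told apart.

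An adult hermaphrodite at the start of egg laying holds much RNA of the germ line and of the intestine, which makes yolk for the oocytes. Over the following days egg laying slows as self-sperm are used up, the body wall and pharyngeal muscles begin to lose structure, and adult cuticle collagens are made at lower rates. Ageing in this worm is set in part by insulin signalling, which holds the transcription factor DAF-16 out of the nucleus, and by the TOR kinase complexes, which couple food to translation, fat storage and autophagy.

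Markers of intestine, oocytes, neurons, muscle and epidermis were detected at both ages, and those of oocytes and epidermis differed in level. Levels are in counts-per-million (CPM), of TMM-scaled libraries for single genes but without TMM factors for the marker sums. The sums are therefore not on the scale of the single genes below. They were 21990 to 46690 for 5 intestinal markers and 180 to 248 for 4 neuronal markers. The 5 oocyte markers summed to 5539, 3694 and 6208 CPM at day 1 and to 6375, 7469 and 7781 CPM at day 5. The 3 epidermal markers, all of them cuticle collagens, summed to 277, 404 and 232 CPM at day 1 and to 154, 50.8 and 41.1 CPM at day 5. For neither of these did the ages overlap, with oocyte markers higher and epidermal markers lower at day 5. Markers of a moulting larva were at 23.02 to 102 CPM and those of the early embryo at 15.6 to 25.7 CPM, with ranges that overlapped between the ages. The 29 sperm genes summed to 6.74, 20.8 and 23.5 CPM at day 1 and to 0.423, 8.36 and 3.20 CPM at day 5, and msp-79 had no count in any of the 6 libraries. In whole worms, fewer cells of a type and less RNA per cell cannot be told apart.

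Libraries 32 and 40 stood apart from their group mates. The library labelled day 5 and numbered 40 had its highest rank correlation with library 33 of day 1 (Spearman correlation 0.991 across the tested genes), and a lower one with libraries 41 and 42 of its own label (0.970 and 0.971), which had 0.992 between them. Library 32 of day 1 correlated with libraries 31 and 33 at 0.968 and 0.939, while these correlated with each other at 0.987. These correlations are across genes within the same libraries and are descriptions. Library 32 also differed by gene length: against the mean of the 6 libraries its log2 CPM fell by 0.537 per doubling of exonic length, while the slopes of the others lay between -0.123 (library 31) and 0.254 (library 40). Library 31 shares its index and lane label with a T14F9.5 day-1 library. Whether library 40 holds worms of another age than its label says, and whether the RNA of library 32 was degraded, was not tested, and no measure of RNA quality is given in the sources used here. Each day-5 against day-1 value rests on the labels, and the main results are given with and without these libraries.

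With all libraries, 2332 of 14735 tested genes (15.8%) differed between day 5 and day 1 on L4440 (edgeR quasi-likelihood test, Benjamini-Hochberg adjusted p under 0.05). At day 5, 990 genes were higher (6.72%) and 1342 were lower (9.11%). The lowest adjusted p was 0.0355, at which many genes tie, so adjusted p does not rank the genes named here. The 3 day-5 libraries lay above all 3 day-1 libraries in 936 of the 990 rising genes and below them in 1196 of the 1342 falling genes. Over all tested genes such a separation was found for 15.6% upwards and 16.5% downwards.

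Which calls stayed depended on the library left out and on the test. Without library 40, edgeR called 18.6% of all tested genes and still called 1719 of the 2332 (73.7%). Without library 32 it called 0 genes, with 3712 at an unadjusted p under 0.05. The loss of all calls was not particular to library 32. edgeR also called 0 genes without library 31, 41 or 42, each left out alone, and 5498 without library 33. The lowest edgeR adjusted p was 0.0616, 0.087 and 0.141 without libraries 31, 41 and 42, and 0.123 without library 32. Without libraries 32 and 40 it called 1 gene, pho-11 (0.00679% of those tested), with 4985 at an unadjusted p under 0.05. DESeq2 without library 40 called 29.4% of the genes with an adjusted p and kept 2161 of the 2332 (92.7%), where 2316 had an adjusted p. Without library 32 it called 12.3% and kept 989 (42.4%), of 1866 with an adjusted p, and without both it called 19.9% and kept 1318 (56.5%), of 2220 with one. All 990 rising and all 1342 falling genes had the same sign in the edgeR fits without 32, without 40 and without both. These genes were selected in the same libraries, most of them with groups that did not overlap. The shared sign thus follows largely from the selection and is no separate support. With an offset for gene length in each library, described further on, 871 of the rising and 1324 of the falling genes had the same sign and the others the opposite one. The size varied with the fit. The median log2 change of the rising genes was 0.78 with all libraries, 0.57 without library 32 and 0.80 without library 40, and that of the falling genes was -1.05, -0.67 and -1.13. A change of at least 2-fold in each of these 4 fits remained for 181 rising and 295 falling genes.

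**Figure D1:**
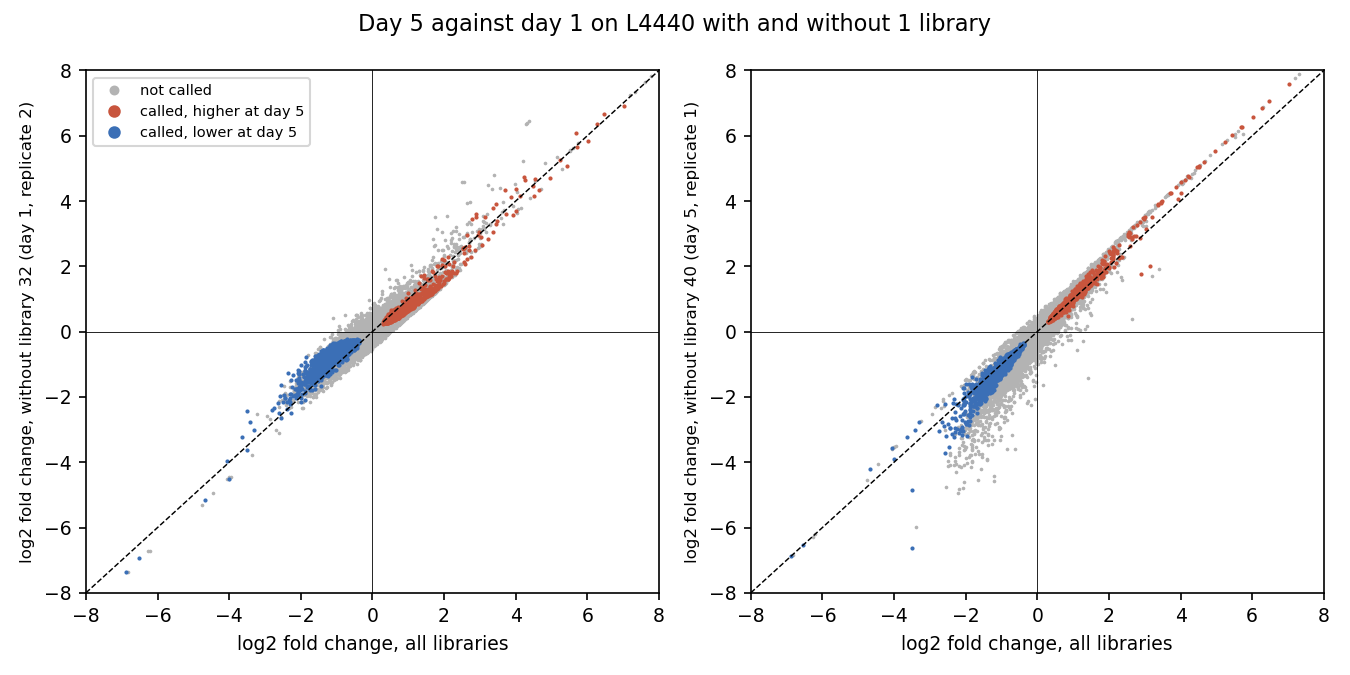
Log2 fold changes of day 5 against day 1 on L4440 for each tested gene, with all libraries on the x axis and without library 32 (left) or library 40 (right) on the y axis; coloured points are the 990 rising and 1342 falling calls and the dashed line marks equal values. Without library 32 the falling calls move towards 0, to a median of -0.67 from -1.05, and without library 40 many uncalled genes move below the line.

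Libraries 43 and 46 are day-5 libraries of the other plasmids that resembled library 40, as shown further on. Leaving out libraries 32, 40, 43 and 46, an alternative chosen after the data were seen, gave 4554 calls (30.9%), 2100 higher (14.3%) and 2454 lower (16.7%). Of the rising and falling calls with all libraries, 752 and 827 were among them. A strict set of 487 rising and 290 falling genes was called by edgeR with all libraries, without library 40 and without those 4 libraries, and by DESeq2 with all, without 32, without 40 and without both. Genes below that are said to be in the strict set passed all of these fits. The set does not require edgeR without library 32, without both or with the length offset, which called 0, 1 and 0 genes. No gene of the set was thus called by edgeR without library 32. With the length offset nol-14, rad-50 and ire-1 of the set changed sign. The choice of fits was made with earlier results of these data known.

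In 6 of the 12 largest rises selected by level, size and lack of overlap, library 40 held less than 0.5 times the CPM of either group mate, and in the other 6 it did not. cnc-6, which encodes a caenacin, a small antimicrobial peptide of the epidermis (chromosome III, 1763522 to 1764902, WBcel235), stood at 0.0570, 0.0429 and 0.113 CPM in libraries 31, 32 and 33. In libraries 40, 41 and 42 it stood at 0.196, 4.46 and 10.4 CPM. The groups did not overlap, but library 40 held only 7 counts and the other day-5 libraries 181 and 399. The log2 fold change was 6.02 ± 1.55 (SE; edgeR adjusted p 0.0357), 5.83 without library 32 and 6.58 without library 40. Without both, DESeq2 called it too (adjusted p 0.0026). cnc-7, of the same family, rose by a log2 of 2.79 ± 0.88 from 0.285, 1.16 and 0.508 CPM to 0.924, 4.85 and 7.28 CPM, with library 40 inside the day-1 range.

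F56D6.8 and F56D6.9 had the largest log2 rises of the genes named here, and library 40 was not above the day-1 libraries for either. They lie close together on chromosome IV, from 3894058 to 3894430 on the minus strand and from 3892327 to 3893326 on the plus strand, and no role is given for them in the sources used here. F56D6.8 had 10, 3 and 3 counts in libraries 31, 32 and 33. Library 40 had 4 counts, and libraries 41 and 42 had 986 and 1647. F56D6.9 stood at 0.1996, 0.343 and 0.254 CPM at day 1 and at 0.112, 26.1 and 43.7 CPM at day 5. The log2 fold changes were 7.02 ± 2.005 and 6.47 ± 1.90 (edgeR adjusted p 0.0374 and 0.0387), and both genes were in the strict set.

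A ferritin and an aspartyl protease were also high in libraries 41 and 42 but not in library 40. ftn-1, the ferritin, which stores iron and is repressed when iron is scarce, stood at 0.314, 0.471 and 0.141 CPM at day 1 and at 0.0840, 12.8 and 33.8 CPM at day 5. Library 40 was the lowest of all 6. The log2 fold change was 5.70 ± 1.799 with all libraries and 6.67 without 32 and 40. asp-17, the aspartyl protease, stood at 3.68, 3.26 and 2.99 CPM against 2.77, 98.5 and 119.1 CPM, again with library 40 lowest (log2 4.47 ± 1.33, edgeR adjusted p 0.0402). cpr-4, a cathepsin B-like cysteine protease, was higher in all 3 day-5 libraries, at 129, 267 and 243 CPM against 79.8, 110 and 71.5 CPM (log2 1.29 ± 0.29). All 3 genes were in the strict set.

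Further strict-set genes rose in all 3 day-5 libraries, with library 40 between the groups. lea-1, a late embryogenesis abundant protein that protects drying worms (chromosome V, 10011923 to 10028168), stood at 128, 102 and 159 CPM at day 1. It reached 232 CPM in library 40 and 741 and 914 CPM in libraries 41 and 42, so the groups did not overlap (log2 2.27 ± 0.63, edgeR adjusted p 0.0364; 2.53 without 32 and 40). T22B7.7 stood at 5.96, 7.46 and 5.42 CPM against 9.29, 132 and 293 CPM (log2 4.53 ± 1.24). Y47H10A.5 stood at 6.64, 5.23 and 6.91 CPM against 8.06, 127 and 114 CPM (log2 3.72 ± 1.02). In both genes library 40 was just above the day-1 range and far below its group mates. F48C1.9 rose by a log2 of 4.22 ± 1.05 and C07E3.3 by 3.02 ± 0.95. Among genes of known class, cyp-13A5, a cytochrome P450, rose by 2.03 ± 0.54, ugt-63, a UDP-glucuronosyltransferase, by 2.03 ± 0.47, tsp-1, a tetraspanin, by 2.13 ± 0.68, and cebp-1, a C/EBP-type bZIP factor of axon regeneration, by 2.05 ± 0.59.

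In the other 6 of those 12 rises library 40 was near its mates or higher. picd-1 stood at 1.11, 0.343 and 6.83 CPM at day 1, with library 33 the highest, against 16.18, 11.3 and 15.8 CPM (log2 2.37 ± 0.73; 1.86 without library 32). It was not in the strict set, and its log2 differences on T14F9.5 and M05B5.5 were 0.40 and 0.09. rrn-3.1, a ribosomal RNA gene, was at 743, 2161 and 779 CPM against 19120, 3885 and 4491 CPM. Its rise (log2 2.90 ± 0.92) was 1.77 without library 40, with adjusted p 0.138. Ribosomal RNA genes lie in near-identical copies, among which reads cannot be assigned with certainty.

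**Figure D2:**
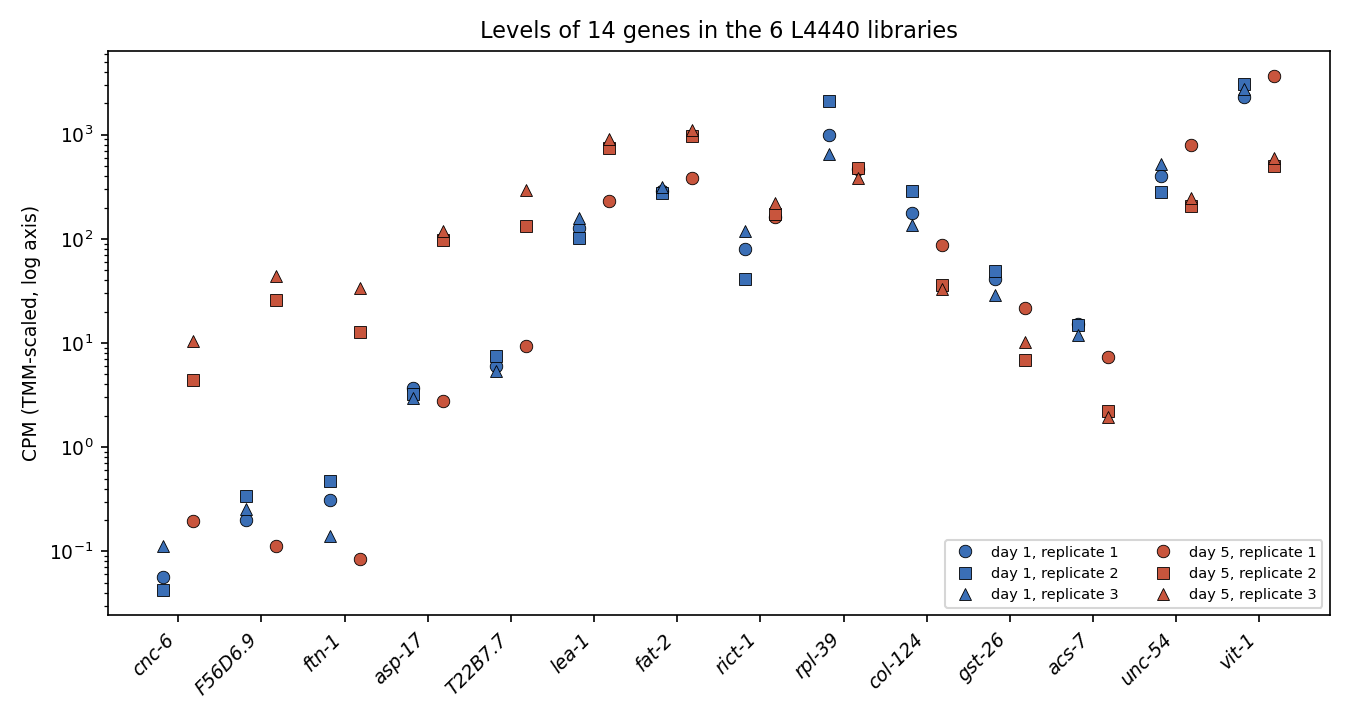
Levels in CPM (log axis) of 14 genes in the 3 day-1 libraries (blue; 31, 32 and 33 are shown as replicates 1, 2 and 3) and the 3 day-5 libraries (red; 40, 41 and 42 are shown as replicates 1, 2 and 3) on L4440. Replicate numbers in the figures follow the library order and pair no libraries between ages. From cnc-6 to lea-1 library 40 (red circles) lies near the day-1 points, for unc-54 and vit-1 it is the highest of the 6, and for rict-1 and rpl-39 it lies with its group mates.

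The falling genes included enzymes of fatty acid activation, detoxification and sulfur metabolism, and in most of those named library 40 lay between the groups. acs-7, an acyl-CoA synthetase, stood at 15.3, 15 and 12.01 CPM at day 1 and at 7.33, 2.24 and 1.95 CPM at day 5. The groups did not overlap, library 32 was like its mates, and the log2 fold change of -1.88 ± 0.50 (edgeR adjusted p 0.0357) was -1.83 without library 32 and -2.75 without library 40. cysl-2, a cyanoalanine synthase of the hydrogen sulfide and cyanide response, stood at 89.4, 156 and 66.8 CPM against 49.99, 19.8 and 32.1 CPM (log2 -1.62 ± 0.36). hrg-4, a haem transporter of the intestine, fell by a log2 of 1.77 ± 0.47, from 10.5, 13.3 and 5.87 CPM to 4.65, 1.85 and 2.21 CPM. In cysl-2 and hrg-4 library 33 was the day-1 library nearest to day 5. dao-2 fell evenly, from 18.1, 22.5 and 18.4 CPM to 6.63, 6.25 and 4.47 CPM (log2 -1.76 ± 0.40; -1.76 without both libraries). These 4 genes were in the strict set.

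pho-11, an acid phosphatase, was the only gene that edgeR called without libraries 32 and 40. It stood at 108, 95.2 and 91.0 CPM at day 1 and at 76.8, 44.2 and 47.0 CPM at day 5. Every day-5 library was below every day-1 library, and library 40 was the nearest to day 1. The log2 fold change was -0.81 ± 0.17 with all libraries (edgeR adjusted p 0.0355) and -1.12 without both, where DESeq2 also called it (adjusted p 9.9e-13). The change was not of this size on the other plasmids: the log2 differences between ages were -0.12 on T14F9.5 and -0.11 on M05B5.5, although the differences from L4440 did not pass the test (edgeR adjusted p 0.67 and 0.38).

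In 2 falling genes with few counts, libraries 31 and 33 alone held more than the limit or level of day 5. clec-94, a C-type lectin, had 16, 1 and 23 counts in libraries 31, 32 and 33 and 0 counts in each day-5 library. A day-5 library with 0 counts allows up to 3 counts, and library 32 with 1 count is within that limit. clec-197 stood at 0.855, 0.0429 and 0.874 CPM against 0.0280, 0.0246 and 0.0520 CPM, so that library 32 was at the day-5 level. Neither was called without library 40 (edgeR adjusted p 0.0535 and 0.0566).

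Gene lists are described by their counts of calls, beside 6.72% of all tested genes higher, 9.11% lower and a median log2 of -0.03 with all libraries. Without libraries 32, 40, 43 and 46 the shares over all genes were 14.3% and 16.7%. For most lists the share that rose or fell stands in brackets after its count.

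The TOR and insulin genes that changed were mostly higher at day 5. rict-1 encodes Rictor, the defining subunit of TOR complex 2, which acts on fat storage and growth (chromosome II, 13098239 to 13116810). It stood at 79.2, 41.1 and 118.9 CPM at day 1 and at 161, 172 and 219 CPM at day 5. Library 32 was lowest, the day-5 libraries lay together above library 33, and the log2 fold change was 1.21 ± 0.30 (edgeR adjusted p 0.0355), 0.90 without library 32 and 1.296 without library 40. On T14F9.5 and M05B5.5 the log2 differences were 0.56 and 0.57. Of 29 tested TOR and AMPK pathway genes 8 rose (27.6%) and 0 fell, with a median log2 of 0.59 that was 0.39 without both libraries. sinh-1, another TORC2 subunit, stood at 4.11, 1.5 and 15.6 CPM against 21.6, 22.9 and 26.9 CPM (log2 1.75 ± 0.52). Its log2 differences on T14F9.5 and M05B5.5 were 0.29 and 0.17. crtc-1, the CREB coactivator that AMPK controls, rose by a log2 of 1.59 ± 0.37 and mlst-8, shared by both TOR complexes, by 1.13 ± 0.33. let-363, the TOR kinase itself, was not called (log2 1.15 ± 0.41, edgeR adjusted p 0.0622), nor was the TORC1 subunit daf-15 (0.78 ± 0.37, adjusted p 0.132). The last 2 of these were picked with their values in view.

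In the insulin pathway 5 of 17 tested genes rose (29.4%) and 2 fell (11.8%). pdk-1, the kinase that activates AKT, rose by a log2 of 0.90 ± 0.24, from 20.3, 10.03 and 27.3 CPM to 37.3, 34.1 and 36.2 CPM. Its log2 differences on T14F9.5 and M05B5.5 were 0.18 and 0.11. par-5, a 14-3-3 protein that binds DAF-16, fell by 0.71 ± 0.21. In both genes library 32 was the farthest from the day-5 libraries. daf-16 itself was not called (log2 0.67 ± 0.35, edgeR adjusted p 0.166), a gene picked with its values in view. Of 26 insulin-like peptide genes 0 rose and 5 fell (19.2%), among them ins-6, a ligand that promotes exit from the dauer stage, at 2.79, 3.34 and 1.61 CPM against 1.29, 1.16 and 1.196 CPM (log2 -1.08 ± 0.27). The median of the insulin-like peptides was -0.61 with all libraries and -0.12 with the length offset.

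The targets of DAF-16 had the highest median of the 48 lists with all libraries and in the fits without library 32, 40 or both. Of 28 tested targets 3 rose (10.7%), ftn-1, lea-1 and tps-1, a trehalose-6-phosphate synthase. 1 fell (3.57%), mtl-2, a metallothionein. The median log2 was 0.87. This was 0.78 without library 32, 1.14 without library 40 and 1.05 without both, against -0.03 over all genes with all libraries. The list of genes that act downstream of DAF-16 and are lowered by it also had a positive median, 0.43 with all libraries and 0.68 without both, with 0 of 15 called. Without libraries 32, 40, 43 and 46, 14 targets were higher and 2 lower, and in the lowered class 7 were higher and 5 lower. The list's median deviation was -0.19, 0.01 and -0.50 in libraries 31, 32 and 33, -0.51 in library 40, and 0.58 and 1.00 in libraries 41 and 42. mtl-1, the other metallothionein, stood at 1.28, 1.67 and 0.931 CPM against 1.06, 34.5 and 28.2 CPM and was not called (edgeR adjusted p 0.0642). sod-3, a superoxide dismutase often used as a readout of DAF-16, stood at 2.88, 3.77 and 2.42 CPM against 1.76, 1.92 and 2.94 CPM and was not called (adjusted p 0.231). The last 2 of these were picked with their values in view.

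Transcripts of cytosolic ribosomal proteins were lower at day 5 almost throughout. Of 78 tested genes 75 fell (96.2%) and 0 rose, with a median log2 of -1.23. rpl-39, a small protein of the large subunit (chromosome V, 7775742 to 7776079), stood at 996, 2101 and 654 CPM at day 1 and at 473, 484 and 385 CPM at day 5. The groups did not overlap, and library 32 was by far the highest. The log2 fold change of -1.48 ± 0.32 (edgeR adjusted p 0.0355) was -0.87 without library 32 and -1.52 without library 40. rpl-41.2, rpl-29, rpl-36 and rps-21 fell by log2 values of 1.70, 1.68, 1.66 and 1.61. The median of the list was -0.64 without library 32, -1.34 without library 40 and -0.73 without both, where DESeq2 called 67 of the 78 lower (beside 9.65% of all genes with an adjusted p). The longer rpl-3 was not called, at 3354, 4296 and 3341 CPM against 3295, 2452 and 2521 CPM (adjusted p 0.0923), and was picked with its values in view. On T14F9.5 and M05B5.5 the median of the list was -0.40 and -0.34.

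These transcripts are short, and short genes as a whole were lower in the day-5 than in the day-1 libraries of L4440. In the shortest quintile of tested genes, up to 783 bases of exons, 828 fell and 22 rose (28.3% and 0.752%). In the longest quintile, from 2289 bases, 17 fell and 579 rose (0.581% and 19.8%). The median log2 change went from -0.64 in the shortest to 0.51 in the longest quintile with all libraries, and from -0.32 to 0.26 without 32 and 40. Library 32 had the strongest trend, 0.80 above the mean of the libraries in the shortest and 0.83 below it in the longest quintile. Library 31, which stays in the fit without 32 and 40, was 0.21 above and 0.18 below it. Against the mean of all 18 libraries the slopes per doubling of length were -0.243, -0.657 and -0.016 in libraries 31, 32 and 33. They were 0.134, -0.006 and 0.07 in libraries 40, 41 and 42. The part of libraries 31 and 32 in the change with length was not tested. With an offset for length in each library, edgeR called 0 genes (4384 at an unadjusted p under 0.05), the median of the ribosomal proteins was -0.60, and the log2 changes of rict-1 and rpl-39 were 0.57 and -0.76. The changes of cnc-6, asp-17 and acs-7 were 6.49, 4.63 and -2.03 in that fit, beside 6.02, 4.47 and -1.88 without the offset.

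**Figure D3:**
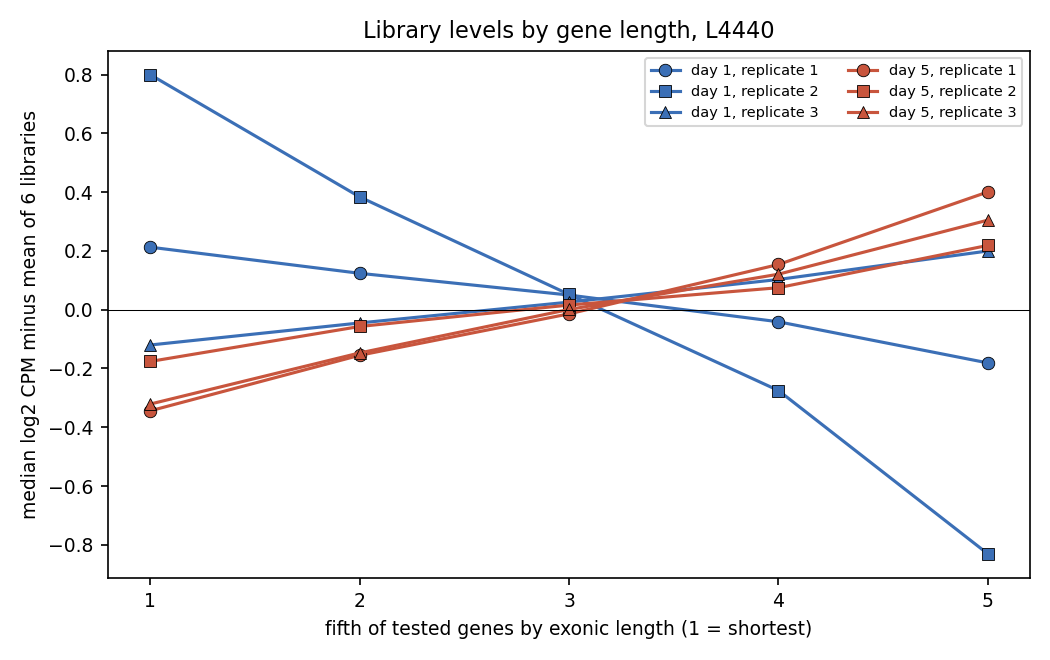
Median log2 CPM of the tested genes in each quintile of exonic length, as the difference from the mean of the 6 L4440 libraries, for day 1 (blue) and day 5 (red). Library 32 (blue squares) runs from 0.80 in the shortest to -0.83 in the longest quintile, and library 31 has a smaller slope in the same direction. Library 33 and the day-5 libraries slope the other way relative to this mean, which includes library 32. Against the mean of all 18 libraries the slopes of libraries 33 and 41 are -0.016 and -0.006.

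Nuclear genes of the respiratory chain and of the mitochondrial ribosome included many falling genes. Of 53 respiratory chain genes 23 fell (43.4%) and 1 rose (median log2 -0.44; -0.30 without 32 and 40), and of 69 mitochondrial ribosomal protein genes 26 fell (37.7%) and 0 rose (median -0.48; -0.15 without both). asg-2, an ATP synthase subunit, stood at 124.1, 278 and 95.5 CPM at day 1 and at 80.7, 50.1 and 43.1 CPM at day 5 (log2 -1.52 ± 0.40). cox-6C, a cytochrome c oxidase subunit, fell by a log2 of 1.29 ± 0.30 and mrps-23 by 1.42 ± 0.34. In asg-2, cox-6C and mrps-23 library 32 was the highest of the 6. With the length offset the medians of these lists were -0.13 and -0.12. The TCA and glyoxylate cycle had 3 of 31 genes higher (9.68%) and 2 lower (6.45%), with a median of -0.04, and ogdh-1, idhb-1 and idhg-1 were those that rose. ogdh-1 stood at 177, 107 and 327 CPM in libraries 31, 32 and 33, and at 301 to 433 CPM in the day-1 libraries of the other plasmids. On T14F9.5 and M05B5.5 the log2 differences by age were 0.07 and -0.014 for ogdh-1, -0.056 and -0.118 for idhb-1, and 0.13 and 0.10 for idhg-1. The mitochondrial unfolded protein response had 2 of 18 higher (11.1%) and 4 lower (22.2%), with a median of 0.09. Protein-coding genes of the mitochondrial genome had a median of -0.06, with 2 of 12 lower and 0 higher.

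Some neuropeptide genes fell and 0 rose. Of 30 FMRFamide-like peptide genes 14 fell (46.7%; median log2 -0.72), and of 56 other neuropeptide-like genes 19 fell (33.9%; median -0.68). flp-26 stood at 3.25, 5.40 and 2.60 CPM against 1.54, 1.65 and 1.43 CPM (log2 -1.27 ± 0.29; -0.91 without both libraries). flp-5 stood at 5.82, 7.41 and 4.46 CPM against 2.55, 3.74 and 2.81 CPM (log2 -0.95 ± 0.21) and was in the strict set. nlp-41 fell by a log2 of 1.64 ± 0.38 and sbt-1, the 7B2 chaperone of the proprotein convertase that cleaves these peptides, by 0.64 ± 0.16. The list medians were -0.52 and -0.52 without libraries 32 and 40, and -0.23 and -0.20 with the length offset. Among 47 genes of neurons and synapses 2 rose and 2 fell (4.26% each), with a median of 0.24. unc-104, the kinesin of synaptic vesicles, rose by a log2 of 1.03 ± 0.30, and cpx-1, a complexin that clamps vesicle fusion, fell by 0.74 ± 0.22. With the length offset the changes of unc-104 and cpx-1 were 0.342 and -0.343. On T14F9.5 and M05B5.5 the log2 differences were 0.142 and 0.065 for unc-104 and -0.633 and -0.486 for cpx-1. Neither gene was in the strict set.

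Of 42 tested glutathione S-transferases, which conjugate glutathione to toxic compounds, 16 fell (38.1%) and 0 rose. The median log2 was -0.85, -0.76 without both libraries and -0.42 with the length offset. gst-38 stood at 4.90, 7.29 and 3.52 CPM at day 1 and at 1.29, 1.45 and 1.66 CPM at day 5, with library 40 at the level of its mates (log2 -1.83 ± 0.27). In the day-1 libraries of the other plasmids gst-38 was at 1.92 to 2.60 CPM, and its log2 differences by age on T14F9.5 and M05B5.5 were -0.91 and -1.095. gst-26, gst-27 and gst-28, members of a chromosome II cluster, fell, by log2 values of -1.61, -1.57 and -1.999, and reads of such close relatives may be shared. gst-26 stood at 40.9, 49.5 and 28.7 CPM against 21.8, 6.87 and 10.2 CPM, with library 40 nearest to day 1. Of 62 cytochrome P450 genes 3 rose and 1 fell with all libraries (4.84% and 1.61%), and 21 were higher and 2 lower without libraries 32, 40, 43 and 46. Of 61 UDP-glucuronosyltransferases 2 rose and 2 fell (3.28% each), and 9 were higher and 22 lower without those 4 libraries.

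Antioxidant enzymes went both ways, with 3 higher (11.5%) and 10 lower (38.5%) of 26. The median log2 was -0.60 with all libraries, -0.28 without library 32 and -0.12 with the length offset. gpx-3, a glutathione peroxidase, fell from 4.71, 5.10 and 3.58 CPM to 2.52, 1.28 and 0.676 CPM (log2 -1.58 ± 0.37), and ctl-3, a catalase, rose from 1.43, 0.386 and 2.71 CPM to 3.08, 8.03 and 9.02 CPM (log2 2.13 ± 0.67). Both were in the strict set. gcs-1, the rate-limiting enzyme of glutathione synthesis, stood at 33.4, 35.1 and 83.4 CPM against 118.7, 128 and 152.1 CPM (log2 1.39 ± 0.29). The day-1 libraries of the other plasmids held 96.7 to 125 CPM of gcs-1, more than any L4440 day-1 library, and its log2 differences by age there were 0.26 and 0.25.

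Genes of fatty acid metabolism changed in both directions. Of 26 synthesis and desaturation genes 6 rose (23.1%) and 2 fell (7.69%), with a median log2 of 0.44. fat-2, the delta-12 desaturase that makes linoleic from oleic acid, stood at 290, 276 and 318 CPM at day 1 and at 381, 969 and 1109 CPM at day 5. Library 32 was like its mates and library 40 lay between the groups (log2 1.48 ± 0.41, edgeR adjusted p 0.0364; 1.44 without 32 and 1.82 without 40). pod-2, the acetyl-CoA carboxylase, rose by a log2 of 1.12 ± 0.32, sbp-1, the SREBP factor of lipid synthesis, by 0.96 ± 0.24 and acs-1, an acyl-CoA synthetase that acts on branched-chain fatty acids, by 0.81 ± 0.22. All 4 were in the strict set, which does not require the fit with the length offset. With that offset the changes were 1.61 for fat-2, 0.396 for pod-2, 0.355 for sbp-1 and 0.46 for acs-1. Of 51 genes of fat breakdown and fatty acid binding 6 rose (11.8%) and 12 fell (23.5%), and the difference between these lists was not tested. cpt-3, a carnitine palmitoyltransferase, rose from 0.485, 0.686 and 0.649 CPM to 1.09, 6.18 and 6.99 CPM (log2 2.97 ± 0.85). lbp-5, a fatty acid binding protein, fell from 22.1, 32.7 and 15.1 CPM to 11.7, 9.13 and 10.1 CPM (log2 -1.17 ± 0.23). The day-1 libraries of the other plasmids held 10.3 to 14.5 CPM of lbp-5, less than any L4440 day-1 library. Its log2 differences by age on T14F9.5 and M05B5.5 were -0.36 and -0.32.

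Innate defence genes included a few calls in both directions. Of 115 C-type lectins, 3 rose (2.61%) and 12 fell (10.4%), with a median log2 of -0.42. clec-168 rose from 0.0855, 0.0857 and 0.197 CPM to 0.280, 1.65 and 2.31 CPM (log2 3.45 ± 0.88), and clec-196 fell from 23.3, 31.5 and 19.5 CPM to 13.6, 3.42 and 1.95 CPM (log2 -1.97 ± 0.64). In both, library 40 was the day-5 library nearest to day 1. Of 50 lysozyme, saposin-like and defensin-like genes 1 rose (2%) and 7 fell (14%), and without libraries 32, 40, 43 and 46, 16 were higher and 9 lower. spp-3, a saposin-like protein, stood at 247, 454 and 146 CPM against 121, 72.2 and 63.7 CPM (log2 -1.72 ± 0.40). Of 33 epidermal antimicrobial peptide genes 2 rose (6.06%), cnc-6 and cnc-7, and 7 fell (21.2%).

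Of 116 cuticle collagens 9 fell (7.76%) and 0 rose. Without libraries 32, 40, 43 and 46, a fit with more calls over all genes too, 38 were lower and 9 higher. The 3 epidermal markers summed above, col-19, dpy-7 and rol-6, are cuticle collagens themselves. Their lower sum at day 5 is therefore no separate measure of epidermal content, and the part of epidermal content was not tested. col-124 stood at 176, 290 and 135 CPM at day 1 and at 88.0, 36.1 and 32.9 CPM at day 5 (log2 -1.94 ± 0.59), and col-106 fell by a log2 of 1.87 ± 0.53. col-19, the collagen used as a mark of the adult epidermis, stood at 261, 467 and 227 CPM against 162, 45.3 and 38.6 CPM. Its groups did not overlap, and it was not called with all libraries (log2 -1.96 ± 0.68, edgeR adjusted p 0.0592) but without library 40 (-2.92, adjusted p 0.0322).

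In body wall muscle 1 of 34 genes fell (2.94%), pat-6, the actopaxin of the attachment sites (log2 -0.38 ± 0.11), and 0 rose. unc-54, the major myosin heavy chain, stood at 398, 279 and 522 CPM at day 1, at 789 CPM in library 40 and at 208 and 246 CPM in libraries 41 and 42. Library 40 was thus the highest of the 6 and its mates the lowest. The log2 difference was 0.05 ± 0.57 with all libraries and -0.82 without library 40 (edgeR adjusted p 0.277), and unc-15, the paramyosin of the same filaments, was at 0.04 and -0.75. The 18 muscle genes that were lower without libraries 32, 40, 43 and 46 included both, with 1 gene higher. The median of the list was -0.13 with all libraries and -0.47 without 32 and 40, and that of 21 pharyngeal genes was -0.25 and -0.90. The summed CPM of 3 muscle markers, without TMM factors, was 688, 402 and 852 against 1191, 390 and 441. These markers include unc-54 and unc-15, so the sum is no separate measure of muscle content.

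The yolk protein genes showed the same division of the day-5 libraries, and none of 11 yolk genes and regulators was called by edgeR or by DESeq2 with all libraries. vit-1 stood at 2288, 3098 and 2721 CPM at day 1, at 3629 CPM in library 40 and at 499 and 594 CPM in libraries 41 and 42. vit-2 stood at 14400, 18300 and 16290 CPM, then at 21060, 7137 and 8414 CPM. For both, library 40 exceeded every day-1 library and its mates were below them all. vit-6 stood at 12880, 14600 and 19800 CPM against 27100, 12760 and 16830 CPM, with groups that overlapped. Without library 40 the log2 differences were -2.31 for vit-1 (edgeR adjusted p 0.0641), -1.07 for vit-2 (0.0531) and -0.09 for vit-6 (0.817). The vit genes are close relatives, so reads may be divided among them. acdh-1, an acyl-CoA dehydrogenase of propionate breakdown, was at 1134, 1199 and 989 CPM, then at 1072, 141 and 287 CPM, and was not called (adjusted p 0.369).

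Germ line genes were called in both directions. Of 46 oocyte and germ line RNA regulators 6 rose (13%) and 1 fell (2.17%), and of 51 DNA replication and cell cycle genes 9 rose (17.6%) and 0 fell. Their median log2 changes were 0.42 and 0.29 with all libraries, 0.23 and 0.15 without both, and 0.18 and 0.02 with the length offset. The summed oocyte markers were higher at day 5 as well, and their part in this was not tested. pgl-1, a P granule protein, stood at 297, 232 and 411 CPM against 512, 494 and 556 CPM (log2 0.73 ± 0.20). rec-8, a meiotic cohesin, stood at 53.2, 49.5 and 72.9 CPM against 84.3, 103 and 113 CPM (log2 0.78 ± 0.20; 0.36 with the length offset), and cdt-1, a licensing factor of DNA replication, rose by 1.15 ± 0.32. All 3 were in the strict set, with library 33 the highest at day 1. For cdt-1 the day-1 libraries of the other plasmids held 92.0 to 127 CPM, against 44.4, 20.9 and 87.3 CPM in libraries 31, 32 and 33. Its log2 differences by age on T14F9.5 and M05B5.5 were 0.08 and -0.09. Sperm genes were at low levels: of 63 tested 8 fell (12.7%) and 1 rose (1.59%). msp-78, a major sperm protein, stood at 0.399, 2.4 and 1.89 CPM against 0.0280, 0.222 and 0.104 CPM (log2 -3.65 ± 1.00), and its close copies share reads. Of 34 early embryo genes 1 rose (2.94%), tbx-33 (log2 0.68 ± 0.20), and 0 fell. Without libraries 32, 40, 43 and 46, 15 of them were lower and 3 higher.

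The RNAi machinery had the largest number of rising genes among the lists, 15 of 51 (29.4%), with 0 falling. ergo-1, an Argonaute of the 26G small RNA pathway, stood at 201, 106 and 340 CPM at day 1 and at 457, 421 and 496 CPM at day 5 (log2 1.09 ± 0.30). sago-1, a secondary Argonaute, rose by a log2 of 0.88 ± 0.22 and ego-1, an RNA-directed RNA polymerase of the germ line, by 0.78 ± 0.23. Library 32 was the lowest for all 3, and the median of the list, 0.52 with all libraries, was 0.34 without both. These are long genes, and with the length offset the median was 0.04 and the changes of ergo-1, sago-1 and ego-1 were 0.58, 0.36 and 0.07.

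Autophagy, lysosome and endoplasmic reticulum stress genes rose in part. Of 69 autophagy and lysosome genes 12 rose (17.4%) and 3 fell (4.35%), with a median log2 of 0.26, 0.16 without both and 0.13 with the length offset. atg-9, the membrane protein of the growing autophagosome, stood at 20.7, 5.83 and 66.7 CPM against 97.4, 90.1 and 104.2 CPM (log2 1.64 ± 0.52; 1.15 without library 32), so the day-1 libraries differed among themselves by more than library 33 differed from day 5. ncr-1, the NPC1 cholesterol transporter, rose by 1.18 ± 0.33 and vha-7, a subunit of the proton pump, by 0.90 ± 0.22 (0.29 with the length offset). In the ER unfolded protein response 5 of 25 rose (20%) and 0 fell, with a median of 0.22, 0.09 without library 32 and -0.02 with the length offset. pek-1, the PERK kinase, rose by a log2 of 1.26 ± 0.36 (0.81 with the offset), and uggt-1, a glucosyltransferase of glycoprotein folding, by 0.91 ± 0.21 (0.17 with the offset). On T14F9.5 and M05B5.5 the log2 differences were 0.33 and 0.19 for pek-1 and 0.09 and -0.06 for uggt-1. The proteasome had 7 of 33 lower (21.2%) and 0 higher (median -0.10). Cytosolic heat shock genes had 1 of 36 higher (2.78%) and 6 lower (16.7%), with a median of 0.01.

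The remaining lists had shares of calls below, near or above those of all genes. Splicing factors had 3 of 48 higher (6.25%) and 11 lower (22.9%), and translation factors 1 of 39 higher (2.56%) and 5 lower (12.8%). Of 38 genes of meiotic chromosomes 3 rose (7.89%) and 0 fell, and of 20 eggshell genes 2 rose (10%) and 0 fell. Ribosome biogenesis had 2 of 23 genes in each direction (8.7% each), and transsulfuration and the methionine cycle 2 of 24 (8.33% each). Of 31 intestinal proteases and markers 2 rose and 2 fell (6.45% each). Large families held few calls: 3 higher and 6 lower of 188 nuclear hormone receptors, 8 and 13 of 298 F-box and MATH-BTB genes, and 2 and 3 of 58 hedgehog-related and patched-related genes. Of 21 pharyngeal genes 1 rose and 2 fell. The median log2 changes of 29 genes of moulting and the apical matrix and of 41 genes of cilia were -0.16 and 0.11.

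**Figure D4:**
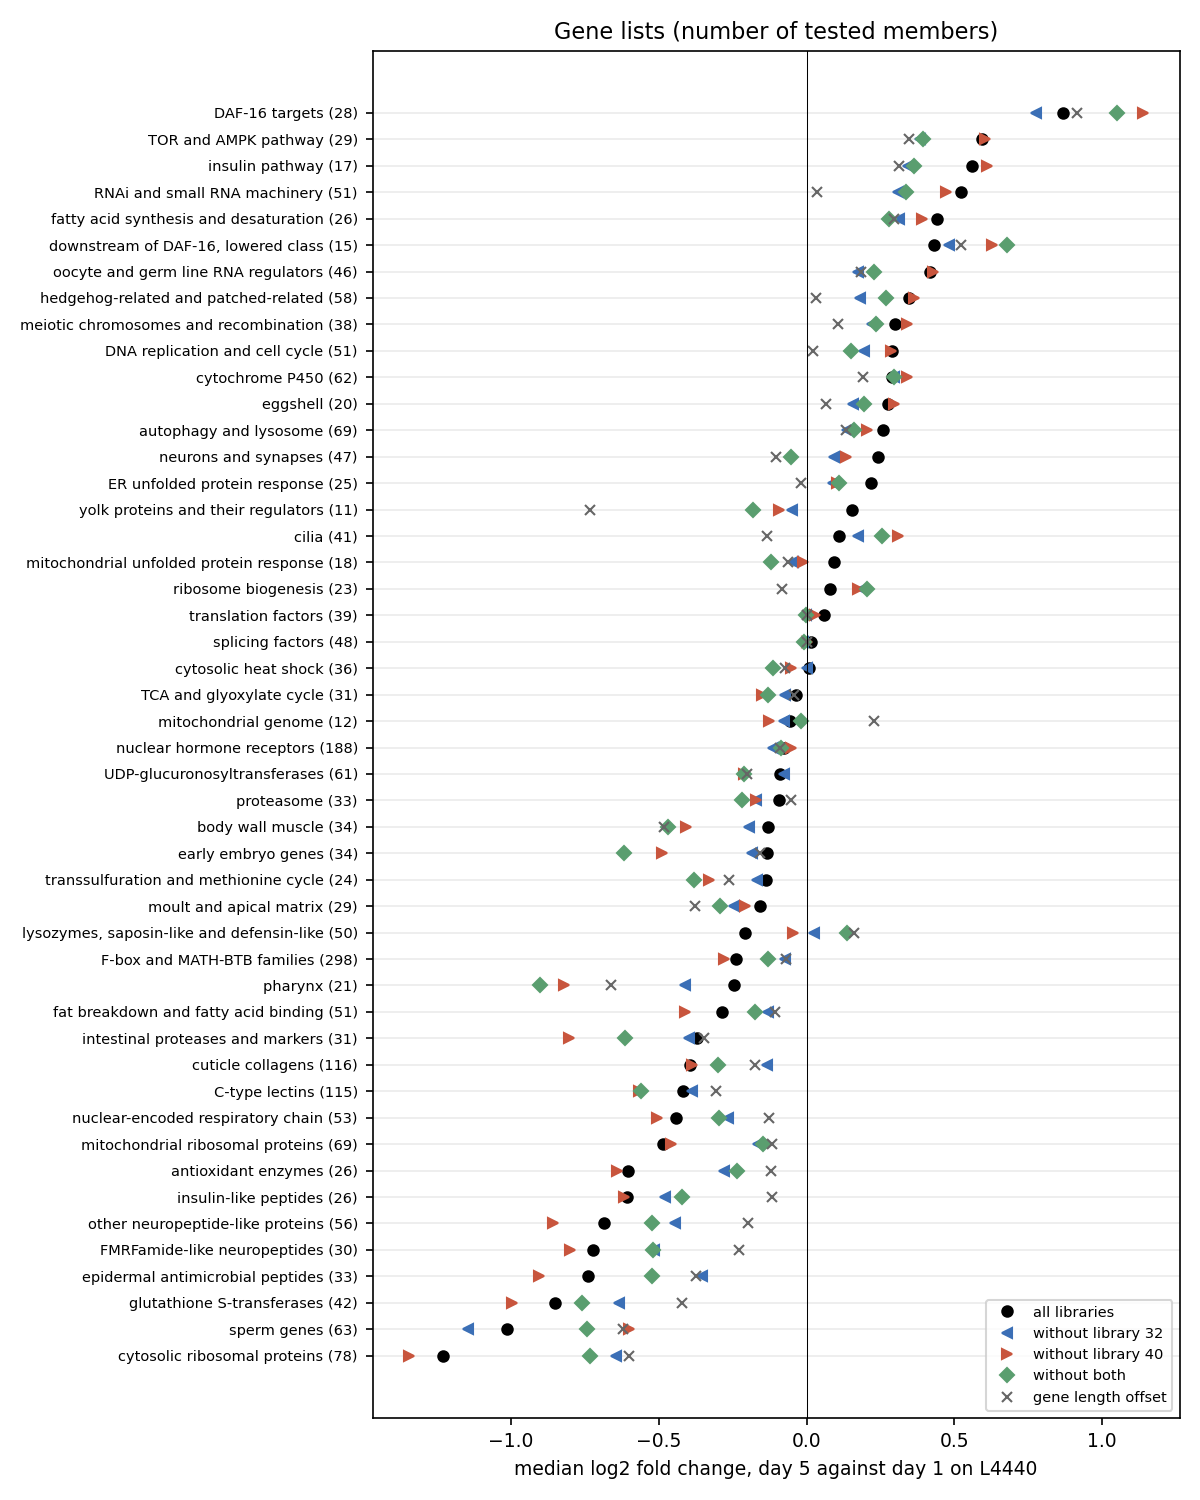
Median log2 fold change, day 5 against day 1 on L4440, of each gene list (number of tested members in brackets) with all libraries, without library 32, without library 40, without both, and with an offset for gene length. The ribosomal proteins lie at -1.23 with all libraries and at -0.64 without library 32, DAF-16 targets lie between 0.78 and 1.14 in the 4 fits without the offset, and muscle and pharynx move down without library 40.

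The libraries of the other plasmids gave the same genes a second view, without sharing any library with L4440. Of the rising L4440 calls 953 (96.3%) had the same sign on T14F9.5 and 821 (82.9%) on M05B5.5, and of the falling calls 1295 (96.5%) and 1127 (84%). Over all tested genes the shares were 74.8% and 65.6%. Against the mean of the 18 libraries, log2 CPM fell by 0.174 per doubling of length in T14F9.5 day-1 library 35. In libraries 31 and 32 it fell by 0.243 and 0.657. The other libraries of T14F9.5 and M05B5.5 had slopes of 0.059 to 0.129. The part of this trend in the shared signs was not tested. By themselves, the age changes on T14F9.5 and M05B5.5 had 0 calls each in edgeR, with 1496 and 1905 genes at an unadjusted p under 0.05. Leaving out libraries 32, 40, 43 and 46 gave 4141 and 4707 calls (28.1% and 31.9%). The difference of the age change between L4440 and either plasmid passed for 0 genes in edgeR (765 and 1923 at an unadjusted p under 0.05) and 0 in DESeq2 (888 and 2123).

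In each plasmid the first day-5 library stood apart in the same genes. asp-17 stood at 3.06, 78.4 and 73.6 CPM in libraries 43, 44 and 45 (T14F9.5, day 5). It stood at 2.89, 92.5 and 92.9 CPM in libraries 46, 47 and 48 (M05B5.5, day 5). The 6 day-1 libraries of these plasmids held 1.27 to 3.90 CPM. lea-1 stood at 202, 820 and 923 CPM and at 202, 931 and 1373 CPM at day 5, and at 147 to 192 CPM at day 1. unc-54 stood at 719, 226 and 199 CPM and at 713, 217 and 276 CPM at day 5, and at 398 to 786 CPM at day 1. On both of these plasmids the first day-5 library was inside the day-1 range of its plasmid for asp-17 and unc-54 and just above it for lea-1. On L4440, 3801 tested genes were higher in both libraries 41 and 42 than in every day-1 library, and library 40 was also higher for 2293 of them (60.3%). The matching shares were 32.7% of 3597 genes on T14F9.5 and 39.3% of 4799 on M05B5.5. Why the first day-5 libraries differ from the other day-5 libraries, and whether they are of another age than labelled, was not tested.

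**Figure D5:**
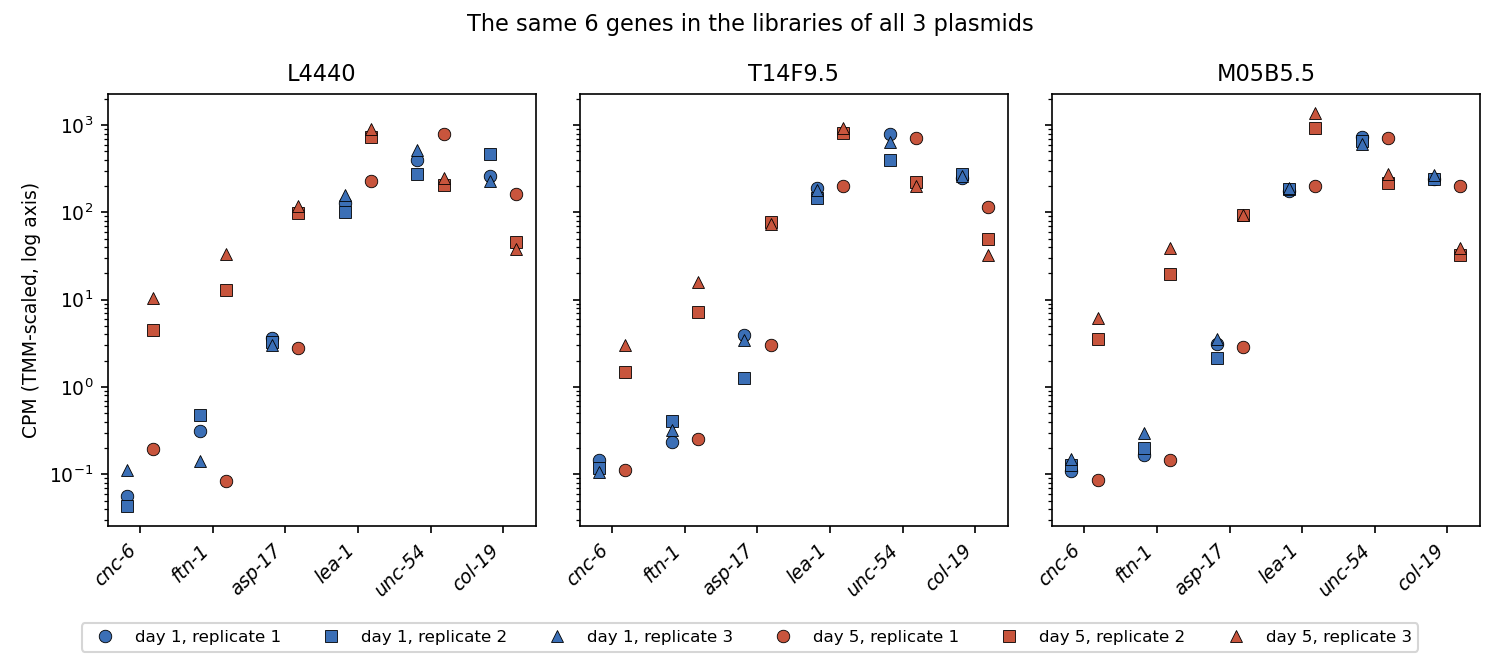
Levels in CPM (log axis) of 6 genes in the 3 day-1 (blue) and 3 day-5 (red) libraries of L4440, T14F9.5 and M05B5.5. In each plasmid the first day-5 library (red circle) lies near the day-1 points for asp-17 and lea-1 and among or above the day-1 points for unc-54, and the other day-5 libraries lie apart from it.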

How the data were processed

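RNA-seq libraries (TruSeq RNA kit v2) of 18 whole-worm samples, 3 in each of 6 groups of plasmid and age, were used. The submitters' processing notes name bcl2fastq 1.8.4, the aligner STAR 2.4.1d, the build WBcel235 and featureCounts 1.4.6-p4. The strand setting, the handling of multiply mapped reads and the release of gene models are not given in the sources used here, so overlapping or antisense genes may share reads. The deposited table holds the authors' raw read counts per gene. The RPKM table was not used. Gene names and exonic lengths were looked up in Ensembl's WBcel235 annotation, where 46449 of 46748 identifiers were found.

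The main test was the robust quasi-likelihood F test of edgeR 4.0.16 (R 4.3.3), with a term for each group fitted to all 18 libraries, 14735 genes kept by filterByExpr at a minimum count of 10, and TMM factors. It had 12 residual degrees of freedom and a common dispersion of 0.0815. P-values were adjusted by Benjamini-Hochberg over all tested genes, with a threshold of 0.05. Each CPM is that of 1 library, and log2 fold changes are given ± SE. Depth was 27024193 to 43016293 counts. The steps were tested on simulated counts. Alternatives were DESeq2 1.42.0, limma-voom (limma 3.58.1), RLE and upper-quartile factors, other filters, the 6 L4440 libraries alone, an offset for length (natural spline, 4 degrees of freedom) and fits without libraries. With 3 against 3 libraries an exact two-sided permutation test cannot go below p = 0.1.

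The rule named cnc-6, rict-1 and rpl-39, the 12 rising and 12 falling calls of largest change with at least 5 CPM in the higher group and no overlap, up to 4 called or else most abundant members of each of 48 lists, the 8 rising and 8 falling calls of largest change without libraries 32 and 40, and the 4 largest calls lost without each library. Cell type markers were named too. Some genes that the rule selects are not reported here. The 15 rising and 15 falling genes of largest change in the strict set were added after the data were seen, as were genes marked so in the text. The groups compared, the lists and the rule were chosen with earlier results of these data known. The lists got no test: their shares of calls are to be read beside those of all tested genes, which are given once. Plots were made in Python 3.11.15 with matplotlib 3.10.9.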

Additional observations from a re-analysis of the deposited data

How the results depend on the processing

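The count of calls for age on L4440, 2332 with all libraries, ranged from 0 (without library 31, 32, 41 or 42, each alone) to 5498 (without library 33) when single libraries were left out. It was 1 without libraries 32 and 40, 4554 without 32, 40, 43 and 46, and 0 with the 6 L4440 libraries alone (2819 at an unadjusted p under 0.05). It was 0 with the length offset and 1 with the offset and without libraries 32 and 40, 715 with no filter on low counts, and 3884 with DESeq2, which gave 1209 without library 32 and 4231 without library 40. limma-voom (2894), RLE factors (2335), upper-quartile factors (2931) and a minimum count of 50 (2478) stayed within 1.5 times. Upper-quartile factors moved the median log2 change of all genes from -0.03 to -0.16 and gave 816 higher and 2115 lower, so the direction of small changes depends on the scaling. The differences of the age change had 0 calls, except without library 33, with 648 against T14F9.5 and 2120 against M05B5.5, so that their leave-one-out counts run from 0 to 648 and from 0 to 2120. Of 208 named genes called with all libraries 4 changed sign, with the length offset: nol-14 (-0.038), nol-10 (-0.04), rad-50 (-0.081) and ire-1 (-0.018). Over all calls 871 of 990 rising and 1324 of 1342 falling genes had the same sign with that offset, and 990 and 1311 with the offset and without libraries 32 and 40. Of 66 named genes not called with all libraries 27 changed sign in at least 1 alternative, among them vit-6 (-0.091 without library 40). Of these, 3 were called lower without libraries 32, 40, 43 and 46: unc-54 (-1.012), unc-15 (-0.94) and myo-2 (-1). Apart from what each alternative leaves out, the cause was not tested. No paired analysis was possible because the labels give no replicate numbers.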
